A study of Mus musculus with 3 samples.

Results

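The prostaglandin and thromboxane pathway was followed through 10 of its genes, across 3 RNA libraries of stimulated mouse macrophages. They were chosen by name and not by a rule on their values, but with earlier results of these data known. They are the phospholipase Pla2g4a, the cyclooxygenases Ptgs1 and Ptgs2, and the terminal synthases Ptges, Ptges2, Ptges3, Tbxas1 and Hpgds. The prostaglandin E2 receptors Ptger2 and Ptger4 complete the 10. All 10 were matched by symbol among 55536 gene entries. The libraries hold polyadenylated RNA of macrophages grown from C57BL/6J bone marrow and exposed to a stimulus at 100 ng/mL over 480 minutes. Which stimulus was used is not settled by the labels, since the descriptions give lipid A (the membrane anchor of bacterial endotoxin) and the source and treatment fields give lipoprotein A. The 3 libraries are 1 group of biological replicates numbered 1, 2 and 3, with no untreated macrophages, so each value is a level after stimulation and none is a change. No transgene or deletion is named, and sex and age were not collected. Each library has its own biosample but all share 1 donor identifier, so whether they came from separate animals is not given, and SDs and p-values measure only the spread between these samples, which may be technical.

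The prostanoid pathway turns a membrane lipid into short-lived local signals. Cytosolic phospholipase A2 releases arachidonic acid from membranes, the cyclooxygenases convert it to prostaglandin H2, and terminal synthases turn that unstable intermediate into prostaglandin E2, prostaglandin D2 or thromboxane A2. The products act on G protein-coupled receptors of the same or neighbouring cells; in macrophages, prostaglandin E2 is known for raising cyclic AMP through EP2 and EP4 and so tempering inflammatory output.

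The starting point for the values below is the contrast between the cyclooxygenase genes, so sequences of both are shown. The 250 bases before each annotated start come from RefSeq on GRCm38.p6. The Ptgs2 stretch lies at chr1:150099781-150100030 on the plus strand and the Ptgs1 stretch at chr2:36230176-36230425 on the plus strand. Capitals mark a match to the C/EBP-type motif TTGCNNAA, which begins 69 bases before the Ptgs2 start.
Ptgs2 upstream: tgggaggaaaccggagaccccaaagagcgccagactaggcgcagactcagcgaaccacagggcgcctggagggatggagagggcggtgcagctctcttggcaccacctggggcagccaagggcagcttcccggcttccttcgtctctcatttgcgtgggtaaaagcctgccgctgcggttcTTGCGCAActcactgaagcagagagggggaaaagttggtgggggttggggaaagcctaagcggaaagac
Ptgs1 upstream: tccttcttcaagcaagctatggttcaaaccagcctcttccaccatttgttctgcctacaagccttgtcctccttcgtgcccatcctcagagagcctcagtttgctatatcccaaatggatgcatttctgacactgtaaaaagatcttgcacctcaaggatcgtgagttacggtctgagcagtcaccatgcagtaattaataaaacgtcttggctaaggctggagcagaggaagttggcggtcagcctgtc
Ptgs2 start site: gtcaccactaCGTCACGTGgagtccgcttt
Ptgs2 after the stop codon: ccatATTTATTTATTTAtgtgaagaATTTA

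The Ptgs2 upstream stretch was 61.6% G and C and the Ptgs1 stretch 48%. The start site stretch, also from RefSeq and in the first exon at chr1:150100034-150100063, covers positions 4 to 33 counted from the annotated start. Its capitals join TGACG, the core of the cyclic AMP response element, read on the other strand from position 14, and the overlapping E-box CACGTG from position 17. All motifs were searched on both strands over windows of 300 bases, from 250 before to 50 after each start. Of 32817 such RefSeq windows, 20.8% held TGACG, 7.15% held CACGTG and 10.8% held TTGCNNAA. Among the 10 genes, 2 held TGACG (Ptgs2, Ptges3), 2 held CACGTG (Ptgs2, Ptges2) and 3 held TTGCNNAA (Ptgs2, Hpgds, Ptger2). The looser NF-kB-type pattern matched 5 of the 10 genes and 50.8% of all windows, so it is not marked. The other motifs searched were the AP-1-type TGANTCA, with 1 of the 10 genes and 7.81% of windows, TATAAA with 2 and 13.6%, and the full element TGACGTCA with 0 and 1.79%. A match describes letters only.

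The fourth stretch, at chr1:150105794-150105823 on mm10, comes from the last exon of Ptgs2 and covers bases 12 to 41 after the stop codon in the GENCODE M21 transcript Ptgs2-201. Capitals mark 4 copies of ATTTA, the core of AU-rich elements, which are known to mark mRNAs of inflammatory genes for decay. Ptgs2 held 14 copies of ATTTA in the 2445 bases after its stop codon, more than 98.2% of 8904 detected protein-coding genes, whose median was 1. The median region of those genes was shorter, at 921 bases, and per kilobase Ptgs2 exceeded 94.6% of them. Pla2g4a held 4 copies in only 443 bases, or 9.03 per kilobase against 5.73 in Ptgs2 and a median of 1.29. No copy was found in this region of Ptgs1, Ptges or Tbxas1, while Ptger2 held 6, Ptger4 5, Ptges3 and Ptges2 4 each, and Hpgds 2. The regions ran from 215 bases in Tbxas1 to 3444 in Ptges2, so these counts do not compare directly. Per kilobase, Ptger4 held 4.06, Ptges3 3.37, Ptger2 3.29, Ptges2 1.16 and Hpgds 0.76.

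Levels are the deposited TPM values (transcript abundance scaled for length and to the same total in each library), given as mean ± SD over the libraries, n = 3. A gene counts as detected at 1 TPM or more in all 3 libraries. By that rule 9 of the 10 pathway genes were detected, beside 17.9% of all gene entries and 42.0% of the 22028 protein-coding ones. Library depth was 26589042, 34344922 and 48356527 expected counts in replicates 1, 2 and 3. All 10 macrophage markers on a fixed list were detected, led by Lyz2, Cd68 and Adgre1 at means of 12916, 2617 and 1008 TPM. Replicate 2 stood apart in other lists: 9 of 10 neutrophil markers (Cxcr2 tied) and all 8 platelet markers were highest there, with summed TPM of 421 against 22.9 and 21.4, and 872 against 230 and 224. Pf4 alone made up most of the platelet sums, at 859 TPM in replicate 2 against 228 and 223. S100a9, S100a8 and Ngp led the neutrophil list at 237, 128 and 43.3 TPM in replicate 2. Ltf and Camp followed at 6.44 and 4.87 TPM in replicate 2, against 0.32 and 0.35 in replicate 1 and 0.83 and 0.40 in replicate 3. Elane, Mpo and Ly6g were at 0 in replicates 1 and 3 and at 0.37, 0.56 and 0.55 TPM in replicate 2. These values rested on 6, 28 and 2 expected counts, and 3 counts of Ly6g would have made 0.824 TPM, so Ly6g lay under that floor. Dendritic cell markers summed to 5.88, 23.9 and 10.2 TPM in replicates 1, 2 and 3, led by Ccr7 at a mean of 8.88. Lymphocyte and fibroblast markers summed to at most 2.26 TPM in any library.

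Pla2g4a, the calcium-dependent phospholipase that supplies arachidonic acid (ENSMUSG00000056220.14, chromosome 1, 149829618 to 149961290, minus strand), had the smallest ratio of highest to lowest library among the 10 genes by TPM. It measured 66.8, 56.0 and 57.6 TPM in replicates 1, 2 and 3, from 3012, 3395 and 4753 expected counts. Its mean was 60.1 ± 5.84 TPM. The libraries lay close together, with the highest 1.19-fold above the lowest, yet the spread exceeded counting error (chi-square test against TMM-scaled totals, adjusted p = 5.2e-20). The second quantification gave a lower mean of 49.98 TPM, outside 1 SD. Its values of 47.6, 53.1 and 49.2 TPM in replicates 1, 2 and 3 ran in the reverse order, so the direction of the spread was not stable. Pla2g4a and Ptgs2 sit on opposite strands with starts 138741 bases apart.

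Ptgs2, the inducible cyclooxygenase (ENSMUSG00000032487.8, chromosome 1, 150100031 to 150108227, plus strand), had the highest level of the 10 genes. It reached 177.1, 169.8 and 95.8 TPM in replicates 1, 2 and 3, from 12889, 16691 and 12810 expected counts. Replicate 3 was the low one. The mean of 148 ± 45.0 TPM ranked 978 of 9930 detected genes, within the top 9.85%. In the second quantification replicate 2 was the highest, at 158 TPM against 125 and 79.8, and replicate 3 was again the lowest.

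Ptgs1, the cyclooxygenase found in most resting tissues (ENSMUSG00000047250.13, chromosome 2, 36230426 to 36252272, plus strand), measured 4.18, 3.20 and 3.26 TPM, a mean of 3.55 ± 0.549. These values rest on 189, 195 and 270 expected counts. The cyclooxygenase genes did not come near each other in any library: Ptgs2 exceeded Ptgs1 by 42.4-, 53.1- and 29.4-fold. Within each library the difference in log2(TPM + 0.1) was 5.30 ± 0.43. Ptgs2 held 97.5% ± 0.737 of the summed cyclooxygenase TPM, with 97.7%, 98.2% and 96.7% in the 3 libraries. In the second quantification the Ptgs1 mean was 2.83 TPM and the Ptgs2 share 97.6%.

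The antisense gene Ptgs2os starts 68 bases from the Ptgs2 start on the other strand and was examined after the values of the 10 genes had been seen. It measured 0.33, 0.16 and 0.30 TPM, below the detection threshold in every library. Ptgs2os2, whose start lies 56721 bases past the end of Ptgs2, measured 1.71, 2.33 and 1.41 TPM. Both were far under the 95.8 TPM of the lowest Ptgs2 library.

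**Figure D1:**
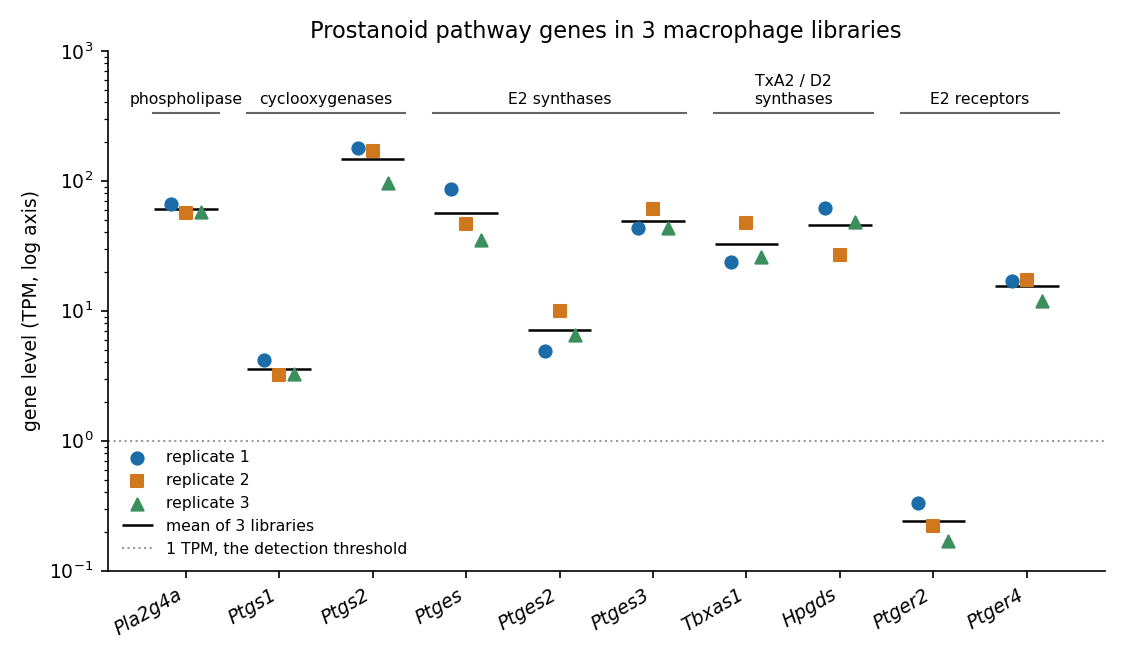
Levels of the 10 pathway genes, ordered by role, in TPM on a log axis; symbols are the 3 libraries, black lines their means, and the dotted line marks 1 TPM. Ptgs2 lies highest at a mean of 148 TPM, Ptger2 is the only gene below the dotted line, and the Ptges, Tbxas1 and Hpgds symbols spread widest among the detected genes above 10 TPM.

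Pairs of genes were called apart when the log2(TPM + 0.1) difference had the same sign in 3 of 3 libraries and its mean exceeded 2 SD. An exact sign-flip permutation test (two-sided) cannot go below p = 0.25 with 3 libraries, so this rule is a description. Of 10 pairs set by role, 6 were apart. Ptgs2 exceeded Pla2g4a by 1.25 ± 0.45 and Ptges by 1.45 ± 0.42 on this scale. The Pla2g4a pair was not apart without replicate 1, where the difference was 1.17 ± 0.61.

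**Figure D2:**
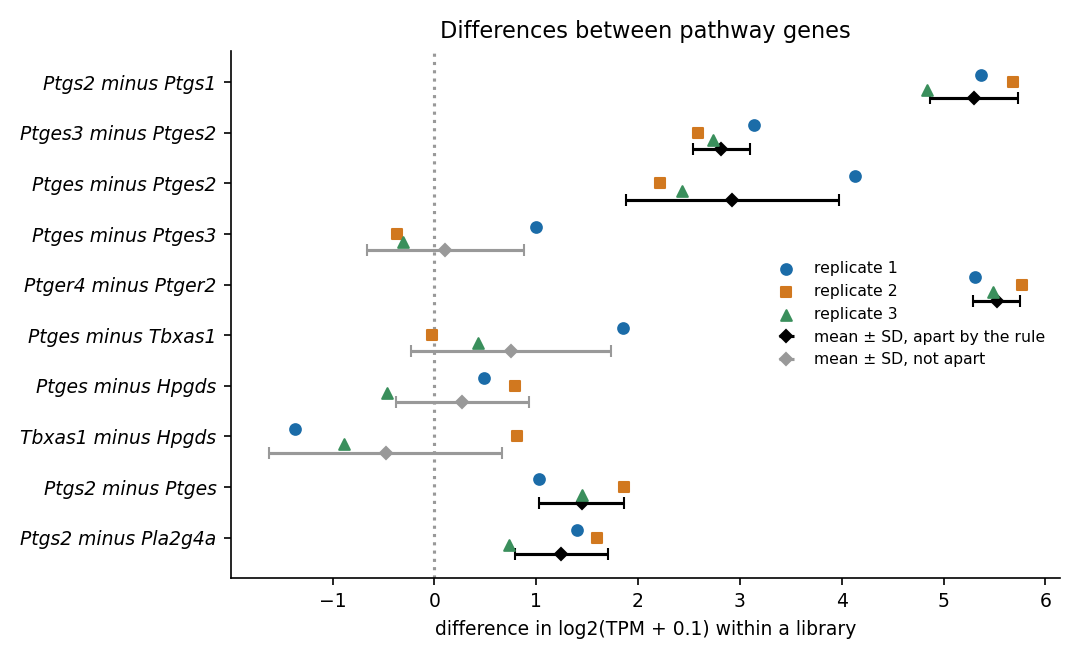
Within-library differences in log2(TPM + 0.1) for 10 gene pairs; symbols are libraries, and diamonds with bars are mean ± SD, black where the pair is apart and grey where it is not. The Ptgs2 to Ptgs1 and Ptger4 to Ptger2 pairs lie farthest from 0, at means of 5.30 and 5.52, and all 4 grey pairs have libraries on both sides of 0.

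Ptges, Ptges2 and Ptges3 encode enzymes described as prostaglandin E2 synthases, and they stood at unequal levels. Ptges, the membrane-bound synthase coupled to inducible cyclooxygenase (ENSMUSG00000050737.13, chromosome 2, 30889471 to 30929863, minus strand), measured 86.7, 46.6 and 35.1 TPM, a mean of 56.2 ± 27.1. Replicate 1 stood well above the others. Ptges3, the cytosolic synthase better known as the Hsp90 co-chaperone p23 (ENSMUSG00000071072.12, chromosome 10, 128058954 to 128077272, plus strand), measured 43.4, 60.2 and 43.5 TPM, a mean of 49.0 ± 9.64. Here replicate 2 was the high one. Ptges2, a membrane-associated synthase (ENSMUSG00000026820.5, chromosome 2, 32395896 to 32405772, plus strand), measured 4.86, 9.93 and 6.45 TPM, a mean of 7.08 ± 2.59.

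Ptges and Ptges3 could not be ordered. Their log2 difference was 0.11 ± 0.77, positive in replicate 1 and negative in the others, and without replicate 1 it was -0.34 ± 0.04. Both exceeded Ptges2 in every library, Ptges3 by 2.82 ± 0.28 and Ptges by 2.93 ± 1.05. The Ptges difference was 2.32 without replicate 1. Restricting TPM to protein-coding transcripts widened these gaps to 5.28 ± 0.35 for Ptges3 and 5.28 ± 0.48 for Ptges.

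Tbxas1, which makes thromboxane A2 and is also expressed by platelets (ENSMUSG00000029925.13, chromosome 6, 38875404 to 39084585, plus strand), measured 23.9, 47.5 and 26.1 TPM, a mean of 32.5 ± 13.0. Replicate 2 was the high library, the same one in which platelet markers were highest: Pf4 measured 228, 859 and 223 TPM, Ppbp 1.05, 9.86 and 0.74, and Itga2b 0.28, 1.48 and 0.34. Platelet genes other than Pf4 stayed under 10 TPM, and the part of platelet RNA in the Tbxas1 value was not tested. Without replicate 2 the Tbxas1 libraries were 23.9 and 26.1 TPM. In bulk RNA, fewer cells of a type and less RNA per cell cannot be told apart.

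Hpgds, the glutathione-dependent prostaglandin D2 synthase known from mast cells and some macrophages (ENSMUSG00000029919.5, chromosome 6, 65117293 to 65144908, minus strand), measured 61.8, 27.0 and 48.4 TPM, a mean of 45.7 ± 17.6. Replicate 2 was the low library, the reverse of Tbxas1. Mast cell and basophil markers were at or near 0: Mcpt4, Tpsb2, Fcer1a and Cma1 had no counts, and the 8 markers summed to 0.47, 1.18 and 0.48 TPM. Kit, Mcpt8 and Cpa3, the highest of them, had means of 0.32, 0.27 and 0.11 TPM.

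The synthases for the E2, thromboxane and D2 branches did not hold a fixed order. Of the summed TPM of Ptges, Tbxas1 and Hpgds, Ptges held 50.3%, 38.5% and 32.03% in replicates 1, 2 and 3. Tbxas1 held 13.9%, 39.2% and 23.8%, and Hpgds held 35.8%, 22.3% and 44.2%. By gene TPM a different gene led in each library: Ptges in replicate 1, Tbxas1 in replicate 2 and Hpgds in replicate 3. That did not hold on coding transcripts alone, where Ptges led in every library with 53.2%, 43.3% and 40.1%. In the second quantification Ptges led in replicates 1 and 2 and Hpgds in replicate 3. On its coding transcripts Tbxas1 led in replicate 2, at 42.5 TPM against 41.4 for Ptges. Ptges led there in replicate 1, and narrowly in replicate 3, at 26.9 TPM against 26.3 for Hpgds. Mean shares of gene TPM were 40.3% ± 9.27 for Ptges, 34.1% ± 11.0 for Hpgds and 25.6% ± 12.8 for Tbxas1. None of the 3 pairs was apart, with log2 differences of 0.75 ± 0.98 for Ptges minus Tbxas1, 0.27 ± 0.65 for Ptges minus Hpgds and -0.48 ± 1.15 for Tbxas1 minus Hpgds. Ptges and Hpgds were apart without replicate 3 (0.64 ± 0.21), and Tbxas1 and Hpgds without replicate 2 (-1.13 ± 0.34).

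Ptger4, the EP4 receptor (ENSMUSG00000039942.15, chromosome 15, 5206661 to 5244187, minus strand), measured 17.0, 17.4 and 12.0 TPM, a mean of 15.4 ± 3.00. Replicate 3 was the low library, as it was for Ptgs2. Ptger2, the EP2 receptor (ENSMUSG00000037759.6, chromosome 14, 44988195 to 45003820, plus strand), measured 0.33, 0.22 and 0.17 TPM from 18.8, 18 and 19 expected counts. These counts lie above the 3 counts taken as a floor, so Ptger2 was measured but was not detected by the 1 TPM rule. Ptger4 exceeded Ptger2 by 51.4-, 79.0- and 70.5-fold, a log2(TPM + 0.1) difference of 5.52 ± 0.23, which was 3.71 ± 0.22 with a pseudocount of 1.

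Of the 9 prostanoid receptor genes measured, 3 were detected, and Ptger4 held 73.0% ± 8.08 of their summed TPM. The prostacyclin receptor Ptgir measured 3.81, 1.85 and 3.42 TPM and the EP1 receptor Ptger1 1.97, 1.84 and 2.80 TPM. Ptger3, which encodes EP3, had a mean of 0.11 TPM. The prostaglandin D2 receptor genes Ptgdr and Ptgdr2 and the prostaglandin F receptor gene Ptgfr had no counts in any library; 3 counts would have made at most 0.0591, 0.0725 and 0.0674 TPM.

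Ordered by mean TPM, the 10 genes ran Ptgs2, Pla2g4a, Ptges, Ptges3, Hpgds, Tbxas1, Ptger4, Ptges2, Ptgs1 and Ptger2. Of 9 pairs of neighbours, 4 were apart: Ptgs2 over Pla2g4a, Tbxas1 over Ptger4 (1.02 ± 0.48), Ptger4 over Ptges2 (1.16 ± 0.54) and Ptgs1 over Ptger2 (3.44 ± 0.17). Pla2g4a, Ptges, Ptges3, Hpgds and Tbxas1, at means between 32.5 and 60.1 TPM, could not be ordered against their neighbours. Tbxas1 over Ptger4 was not apart on coding transcripts (0.81 ± 0.52), without replicate 2 (0.80 ± 0.44) or without replicate 3 (0.97 ± 0.67). Without replicate 3, Ptger4 over Ptges2 was not apart either (1.29 ± 0.69), which left 2 neighbouring pairs. Ptges2 over Ptgs1 was apart without replicate 1 (1.28 ± 0.45) and in the second quantification (1.11 ± 0.44), but lay the other way on coding transcripts. Over all 45 pairs, 34 were apart.

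Transcript tables gave the share of each gene's TPM on each annotated transcript. The 10 genes have 38 annotated transcripts, of which 29 had counts. In 5 genes (Pla2g4a, Ptgs1, Ptgs2, Ptges3 and Ptger4) protein-coding transcripts held at least 95% of TPM in every library. Ptgs2 was assigned wholly to Ptgs2-201 in all 3 libraries, leaving Ptgs2-202, a coding transcript of 358 bases, at 0. Ptger4 was divided between coding transcripts in a steady ratio, with 75.3%, 77.0% and 75.5% on Ptger4-201 and 24.6%, 22.96% and 24.3% on Ptger4-202. Ptger2 was 100% coding in replicates 2 and 3 and 82.9% in replicate 1, where 2.38 counts fell on a retained-intron transcript.

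Ptges2 was the exception: most of its TPM did not come from a coding transcript. Ptges2-203, a retained-intron transcript of 765 bases, held 75.1%, 89.2% and 81.2% of the gene TPM, and the coding Ptges2-201 held 24.9%, 10.8% and 18.1%. By expected counts the picture was the reverse, with 75.5%, 54.3% and 68.5% of counts on Ptges2-201, a transcript of 4978 bases. The TPM share of the short transcript rested on 32.1, 99.7 and 80.6 counts. On coding transcripts alone, Ptges2 measured 1.21, 1.07 and 1.17 TPM, a mean of 1.15 ± 0.0721, against 7.08 for the whole gene. By coding TPM it fell below Ptgs1 in the order, by 1.54 ± 0.16 on the log2(TPM + 0.1) scale.

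Hpgds also had a large noncoding share. Its coding transcript Hpgds-201 held 66.4%, 63.3% and 64.2% of TPM, and Hpgds-202, a retained-intron transcript of 420 bases, held 22.9%, 30.7% and 27.3% from only 41.6, 28.5 and 63.5 counts. By counts, 83.3% to 88.5% of Hpgds was coding. Its coding TPM was 29.7 ± 12.0, close to the 28.5 ± 13.3 of Tbxas1. The second quantification placed 47.2% of Hpgds TPM on the coding transcript.

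Ptges was assigned wholly to the coding Ptges-202 in replicate 2 and 99.5% in replicate 3, but 80.6% in replicate 1, where the noncoding Ptges-201 held 19.4% from 130 counts. Coding TPM of Ptges was 69.9, 46.6 and 34.95, so replicate 1 remained the highest. The second quantification gave coding shares of 56.1%, 80.2% and 73.7%. In Tbxas1, Tbxas1-201 held 76.4%, 75.9% and 75.1%, and the short coding Tbxas1-203 of 403 bases held 9.47%, 16.2% and 5.15%. Coding TPM of Tbxas1 was 20.6, 43.9 and 21.1, with replicate 2 again the high library.

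**Figure D3:**
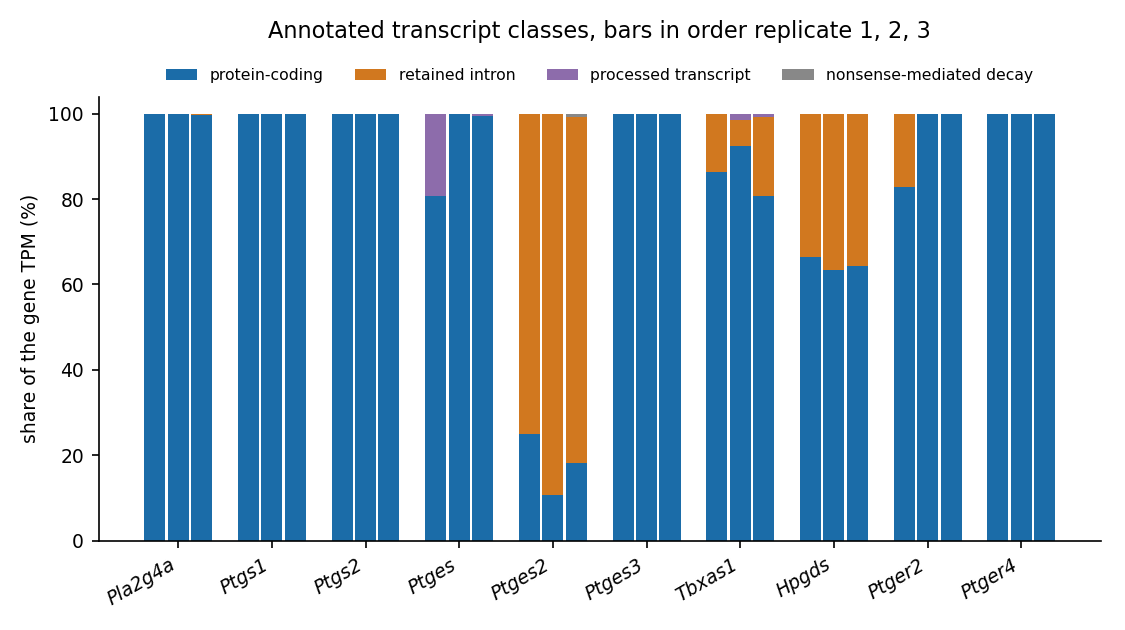
Share of each gene's TPM by annotated transcript class, in percent; the bars of each gene are replicates 1, 2 and 3. Ptges2 is mostly retained intron in all 3 libraries, Hpgds is 63.3% to 66.4% coding, and a processed transcript of Ptges appears as a visible band in replicate 1 alone.

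Spread between libraries was tested for every gene against counting error, with a chi-square test of rounded expected counts against TMM-scaled library totals and Benjamini-Hochberg adjustment at 0.05. Of the 10 pathway genes 8 were called, beside 70.9% of the 12414 genes tested, so the count is near the background. Without replicate 2, 7 of the 10 genes were called, beside 5299 (42.7%) of all genes tested, against 8799 with all libraries. The strongest statistics were those of Ptgs2 (chi-square 2988 with 2 degrees of freedom), Ptges (1160, adjusted p = 6.4e-251) and Hpgds (996, adjusted p = 1.9e-215). Tbxas1 followed with 155 (adjusted p = 1.3e-33). Ptges2 and Ptger2 were not called, with adjusted p-values of 0.396 and 0.186.

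Calls on 3 genes rested on 1 library each. Ptgs1 was called with an adjusted p of 0.0053 by this chi-square test, but 0.553 without replicate 1, and 0.0045 to 0.034 under the other alternatives. Ptges3 gave an adjusted p of 3.5e-23 by the same test but 0.890 without replicate 2, and Ptger4 2.3e-18 but 0.872 without replicate 3. Under the other alternatives both were called, with adjusted p-values of at most 1.5e-16 for Ptges3 and 3.6e-14 for Ptger4. By TPM the libraries other than the named one lay close together, at 3.20 and 3.26 for Ptgs1, 43.4 and 43.5 for Ptges3, and 17.0 and 17.4 for Ptger4. The second quantification differed: Ptger4 measured 12.5, 17.0 and 10.4 TPM in replicates 1, 2 and 3, so replicates 1 and 2 were not close. Ptgs1 measured 2.94, 2.87 and 2.69 there, and replicate 1 did not stand apart.

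The size of the spread depended on the scale. By TPM, the ratio of the highest to the lowest library had a median of 1.85 in the 9 detected pathway genes and 1.34 in all 9930 detected genes, with Ptges (2.47), Hpgds (2.29) and Ptges2 (2.04) highest. By TMM-scaled counts the medians were 1.42 and 1.31. On that scale 2 of the 9 genes, Hpgds (2.70) and Ptges (2.07), spanned at least 2-fold, beside 8.72% of detected genes. Ptges2 fell to 1.17 on that scale. The median biological coefficient of variation from edgeR was 20.96% in the 10 genes and 20.5% in all genes tested.

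Replicate 1 was the highest library by TPM for 5 of the 9 genes and replicate 2 for 4, and replicate 3 was the highest for none. Among all detected genes the shares by TPM were 30.4%, 46.2% and 23.2%. The count for the pathway genes depended on the values used. In the second quantification Pla2g4a and Ptgs2 were highest in replicate 2 instead of replicate 1. By TMM-scaled counts Ptger4 was highest in replicate 1 instead of replicate 2. Ptgs2, Ptges and Ptger4 were lowest in replicate 3, and Hpgds was lowest in replicate 2. Replicate 3 also had the largest share of TPM on ribosomal RNA and mitochondrial genes, at 11.0% against 6.51% and 6.87%, and the deepest library. With TMM-scaled counts Ptgs2, Ptges and Ptger4 were again lowest in replicate 3. Without ribosomal RNA and mitochondrial genes these 3 genes measured 160 ± 45.4, 60.8 ± 28.2 and 16.8 ± 2.87 TPM. With all genes they measured 148 ± 45.0, 56.2 ± 27.1 and 15.4 ± 3.00 TPM. The part of that share and of depth in their low replicate 3 values was not tested further.

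**Figure D4:**
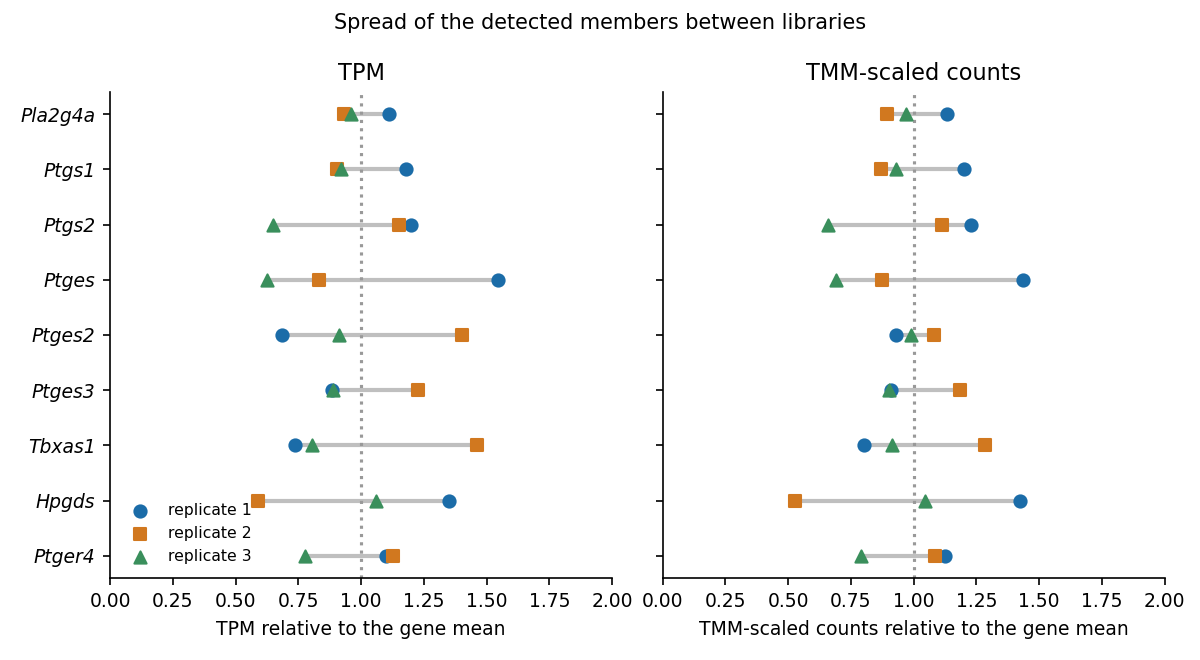
Each detected gene's libraries relative to the gene's own mean, by TPM (left) and by TMM-scaled counts (right); symbols are libraries and grey lines run from the lowest to the highest. The Ptges2 line is long on the left (2.04-fold) and short on the right (1.17-fold), while Ptges and Hpgds span at least 2-fold on both.

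Other genes of the arachidonic acid pathway came from 5 lists of 46 genes, of which 18, or 39.1%, were detected, near the 42.0% of protein-coding genes. Of 17 other phospholipase A2 genes, 4 were detected. Pla2g7, the secreted enzyme that degrades platelet-activating factor, measured 54.3, 26.4 and 43.4 TPM, and Pla2g15, the lysosomal phospholipase, 25.4, 39.5 and 32.7 TPM. Pla2g12a and Pla2g4c had means of 2.71 and 1.53 TPM. Pla2g7 and Pla2g15 were thus the other phospholipases above 10 TPM, and 5 of the 17 had no counts.

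Of 7 other prostanoid synthase genes, 4 were detected. Akr1b3, an aldose reductase with prostaglandin F synthase activity, measured 90.5, 119.7 and 111.1 TPM, the highest of this list. Prxl2b, a prostamide and prostaglandin F synthase, had a mean of 28.8 ± 11.3 TPM, Cbr1, a carbonyl reductase that can act on prostaglandin E2, 9.81 ± 2.03, and Ptges3l, a gene related to Ptges3, 2.83 ± 0.472. Ptgis, the prostacyclin synthase, had no counts, and Ptgds, the lipocalin-type prostaglandin D2 synthase, had 3 counts over all libraries. Of the D2 synthase genes Hpgds was thus the detected one.

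Of 5 genes for prostaglandin transport and inactivation, 3 were detected: the prostaglandin reductases Ptgr1 at 11.4 ± 1.32 TPM and Ptgr2 at 8.01 ± 2.24, and the efflux pump Abcc4 at 6.24 ± 0.528. Hpgd, which starts prostaglandin breakdown, measured 0.45, 0.30 and 0.33 TPM and was not detected. The uptake carrier Slco2a1 had a mean of 0.03 TPM.

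In the leukotriene branch, which draws on the same arachidonic acid, 5 of 10 genes were detected. Alox5ap, the protein that presents arachidonic acid to 5-lipoxygenase, measured 112, 111 and 96.2 TPM, while Alox5 itself measured 0.12, 0.36 and 0.02 TPM. The downstream enzymes Lta4h and Ltc4s had means of 9.96 ± 2.81 and 3.79 ± 0.58 TPM. The cysteinyl leukotriene receptors Cysltr2 and Cysltr1 had means of 23.8 ± 6.14 and 8.02 ± 2.09 TPM. Alox5 was thus below the detection threshold in every library in which Ptgs2 stood at 95.8 TPM or more.

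**Figure D5:**
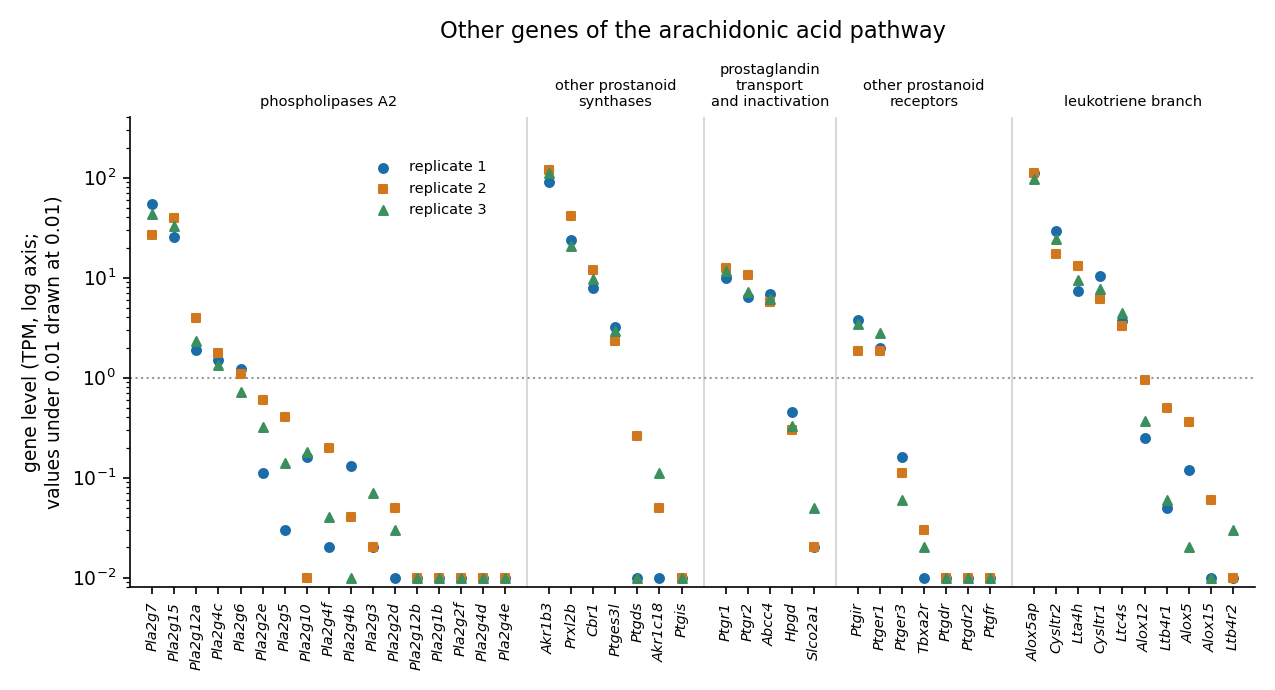
Levels of the 46 other pathway genes in TPM on a log axis, by list and in order of mean; symbols are libraries, values under 0.01 are drawn at 0.01, and the dotted line marks 1 TPM. Akr1b3 and Alox5ap lie highest, at means of 107 TPM each, and of the other prostanoid receptors Ptgir and Ptger1 lie above the line in all 3 libraries.

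Several members overlap genes on the other strand, and whether counting used strand is not given in the sources used here. Ttc33, which overlaps Ptger4, was detected at 15.6, 13.1 and 15.6 TPM, and Hipk2, which overlaps the start of Tbxas1, at 11.4, 13.2 and 17.4 TPM. By TPM Ttc33 was lowest in replicate 2, where Ptger4 was highest, and Hipk2 was highest in replicate 3. The opposite order of Ttc33 and Ptger4 depended on the values used. In the second quantification Ttc33 was lowest in replicate 1, at 11.6 TPM against 12.1 and 13.8. By TMM-scaled counts Ptger4 was highest in replicate 1. The part of the overlaps in the member values was not tested. Gm17173 and Gm49364 over Ptger2, Gm42962 and 1700025N23Rik over Tbxas1 and Gm43621 over Ptgs1 were all under 1 TPM. These neighbours were chosen after the values of the 10 genes had been seen.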

How the data were processed

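Polyadenylated RNA was sequenced in 3 libraries of 1 group. Per the deposited readme, the authors quantified reads against mm10 using GENCODE M21; program names were not given in the sources used here. The deposited gene and transcript tables hold expected counts (assigned by a model, unscaled), TPM and, per the file headers, for each transcript its percent of the gene's TPM. A second deposited transcript quantification, made without an alignment, gives estimated counts and TPM, here summed per gene. Gene names come from those tables; Prxl2b was matched through its older symbol in RefSeq.

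Here, levels were summarised with 1 TPM as the detection threshold and a pseudocount of 0.1 on the log2 scale. Expected counts were rounded for the chi-square test, run where the mean count reached 10, with totals scaled by TMM (edgeR 4.0.16, R 4.3.3). An intercept-only edgeR model gave the dispersions. The chi-square null covers counting error only and was tested on simulated data. A floor is the TPM equivalent of 3 counts, taken from the library in which it is largest. DESeq2 1.42.0 supplied alternative size factors. Tables and plots were made in Python 3.11.15 with pandas 2.3.3, numpy 2.4.6, matplotlib 3.10.9 and scipy 1.17.1. Depth of 26589042 to 48356527 counts left genes under 1 TPM with few counts.

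All 10 members are named. Of each other pathway list the 3 genes with the highest mean TPM and any other detected gene are named, and of each marker list up to 3. Genes named because they had no or few counts, and the neutrophil genes Ltf, Camp, Elane, Mpo and Ly6g, were chosen after their values were seen. The members and lists were chosen with earlier results of these data known. The neighbouring genes and the motifs were also chosen with the member values in view. Alternatives covered pseudocounts, detection and count thresholds, scaling, the second quantification, coding transcripts alone (added after seeing the data) and leaving out each replicate. Correlations across 3 samples and outlier tests were not made.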

Additional observations from a re-analysis of the deposited data

How the results depend on the processing

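No paired analysis was possible because the series holds 1 group, whose replicate numbers pair with no other samples. Leaving out each replicate gave 2 to 5 neighbouring pairs apart (4 with all libraries), differences of -0.34 to 0.34 for Ptges minus Ptges3, 0.013 to 0.64 for Ptges minus Hpgds, -1.13 to -0.037 for Tbxas1 minus Hpgds and 1.07 to 1.502 for Ptgs2 minus Pla2g4a, and 5299 to 7459 genes varying between libraries (8799 with all). With coding transcripts of the second quantification, chosen after seeing the data, Ptges minus Ptges3 was -0.16 and Tbxas1 minus Hpgds 0.027, both within their spread. The second quantification gave coding shares of 70.0% for Ptges and 47.2% for Hpgds, and the cause was not tested. Detection of 9 members held under every alternative run for it but 5 TPM, which left 7. Coding transcripts of the second quantification were not run for detection. There Ptges2 measured 0.80, 1.02 and 0.95 TPM, under the threshold in replicates 1 and 3. The 6 role pairs called apart were so under all alternatives run, except Ptgs2 and Pla2g4a without replicate 1. Limits are the single group, 3 libraries, no untreated cells, the disagreement of the labels on the stimulus, and short transcripts whose TPM rests on few counts.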
